A study of Homo sapiens with 6 samples.

Results

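The 49 genes described here encode proteins that build ribosomes in the nucleolus, together with the protein subunits of the related ribonucleoproteins RNase P and RNase MRP. They were chosen by name, as the core proteins of small nucleolar ribonucleoproteins (snoRNPs), the small subunit processome, large subunit assembly factors, the RNA polymerase I machinery and the RNase P and RNase MRP subunits. This choice was made with earlier results of these data known. All 49 have a row among the 54261 genes of the count table. The cells were A549, an established human lung adenocarcinoma line. In the si-SNHG17 group (3 libraries) the long noncoding RNA SNHG17, a small nucleolar RNA host gene, was knocked down, and in the si-NC group (3 libraries) the cells were controls; neither group is labelled with any other change. The sources used here do not give the sequence, dose or time of the siRNAs. Nor do the labels state that libraries of a group are separate cultures, and the p-values therefore reflect the spread among the libraries, possibly technical, and no more.

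Ribosomes begin in the nucleolus, where RNA polymerase I transcribes a long ribosomal RNA precursor. Guide RNAs of the box C/D and box H/ACA families direct 2′-O-methylation and pseudouridylation of that precursor, each in a particle with a fixed set of core proteins. The small subunit processome folds and cleaves the part that becomes the small subunit, and other factors assemble the large subunit. RNase MRP cuts the precursor in its first internal spacer, while RNase P trims the 5′ ends of transfer RNA precursors, and both consist of a catalytic RNA (RMRP or RPPH1) with a largely shared set of proteins. Many of these genes are known targets of the transcription factor MYC, which binds the E-box CACGTG.

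The E-box was present in the promoters of a minority of the members. In the RefSeq promoter windows (GRCh38.p14, 250 bases before to 50 bases after the annotated start), CACGTG, which reads the same on both strands, was present in 16 of the 41 members with a window (39.0%), against 8.78% of the 27305 genes with a window and 7.26% of all 35116 windows. The shares of genes and windows, here and for the other motifs below, cover every gene with a window, expressed in A549 or not. Expressed mRNAs alone were not counted. A match to these letters is a description of sequence and not a measured binding site. The E-box carriers that changed after SNHG17 knockdown are given first here, each with the 30 bases around the E-box, on the gene's own strand with the E-box in capitals, followed by 3 carriers from the snoRNP cores that did not pass the test, so that the flanks can be compared between carriers that moved up, moved down or did not pass.
DDX21, higher, chr10:68956604-68956633, plus strand: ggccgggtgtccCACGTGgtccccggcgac
NOP14, higher, chr4:2963374-2963403, minus strand: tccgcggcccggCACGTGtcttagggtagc
PES1, higher, chr22:30591880-30591909, minus strand: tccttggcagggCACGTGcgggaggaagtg
UTP18, higher, chr17:51260445-51260474, plus strand: gggagtgctggtCACGTGgcaagaggctgc
GNL3, lower, chr3:52686026-52686055, plus strand: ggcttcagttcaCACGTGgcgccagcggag
NOP2, lower, chr12:6568242-6568271, minus strand: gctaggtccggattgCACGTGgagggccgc
FBL, not past the threshold, chr19:39846356-39846385, minus strand: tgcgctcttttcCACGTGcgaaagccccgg
NOP10, not past the threshold, chr15:34343289-34343318, minus strand: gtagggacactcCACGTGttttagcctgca
GAR1, not past the threshold, chr4:109815781-109815810, plus strand: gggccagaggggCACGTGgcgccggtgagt

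The E-box lay close to the start that the window was built on in most of these genes. In DDX21, PES1, GAR1 and GNL3 that start is not the outer end of the gene's annotated span. There the E-box lay inside the span, which begins at 68956170 in DDX21, 109815510 in GAR1 and 52685920 in GNL3. The span of PES1, on the minus strand, begins at 30607013, far from its window. Counted from the window's start, the first base of the E-box was 6 bases after it in FBL and in GNL3. It was 13 after it in PES1, 15 in NOP14, 31 in GAR1 and 35 in NOP2. The E-box was upstream of the window's start in DDX21 (position -31), UTP18 (-89) and NOP10 (-170), and the windows of UTP18 and NOP10 held 2 E-boxes. The other carriers were NOL6, POP7, RRP9, UTP4, UTP14A, UTP20 and WDR43. Carrying the E-box did not go with 1 direction. Of the 15 carriers tested, 4 were higher and 2 were lower in si-SNHG17, with a median log2 fold change of 0.15. Of the 25 tested members whose window lacked the E-box, 3 were higher and 5 were lower, with a median of 0.11. Among all genes tested, 19.6% were higher and 19.6% lower, and the difference between carriers and the others was not tested. RRP12 and RRS1, which were higher, and RRP1B, POP1, BOP1 and NOLC1, which were lower, had no window and are in neither set. NOP58 and TCOF1, which did not pass, also had no window. Other motifs were searched on both strands. The ETS-type motif CCGGAAG was in 14 of 41 members (34.1%), against 12.2% of genes and 10.3% of windows, and the CCAAT box was in 20 members (48.8%), against 39.7% of genes and 34.6% of windows. TATAAA was present in 1 member, UTP20 (2.44%), against 14.0% of genes and 11.5% of windows. No motif searched contains another.

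The libraries held 8643076 to 12477214 counts, and 3 counts, the limit that a count of 0 allows, corresponded to 0.240 to 0.347 CPM (counts at a common library size), for counting error only. SNHG17 itself had 7.82, 8.39 and 11.3 CPM in the si-SNHG17 libraries, and 38.7, 36.2 and 51.4 CPM in those of si-NC (exact two-sided permutation test of log2 CPM, p = 0.1, the smallest that 3 against 3 allows). Epithelial markers summed to 4998 to 5011 CPM in si-SNHG17 and 8429 to 9441 CPM in si-NC, with none of 6 at 0. Immune markers summed to 19.9 to 22.8 CPM in si-SNHG17 and 31.8 to 45.7 CPM in si-NC, with 6 of 10 at 0 in both groups, among them PTPRC and CD3E. Fibroblast and endothelial markers summed to 23.7 to 31.2 CPM in si-SNHG17 and 22.6 to 29.2 CPM in si-NC, with 3 of 10 at 0. Mitochondrially encoded genes took 4.16% to 4.53% of counts in si-SNHG17 and 7.25% to 8.07% in si-NC. KRT8 and KRT18 carried the epithelial sum and were lower (log2 fold change -0.75 and -0.93), while KRT19 was higher (0.43). Nearly all of the immune sum was CD14, with a mean of 19.6 CPM in si-SNHG17 and 36.1 CPM in si-NC. The fibroblast and endothelial sum was nearly all COL1A1 (25.3 CPM in si-SNHG17, 24.3 CPM in si-NC). The epithelial and immune sums and the mitochondrial share differed between the groups without overlap, and their part in the members' values was not tested; in bulk samples fewer cells of a type and less RNA per cell cannot be told apart. Replicate 3 of si-NC stood apart from replicates 1 and 2 (chi-square of the counts over its degrees of freedom 9.72 and 9.31, while replicates 1 and 2 gave 2.37), and leaving it out moved the log2 fold change of 15 of the 48 members tested by over 1.5 times or turned its sign; those values are given with each gene.

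The members did not move in 1 direction. By edgeR's quasi-likelihood test with Benjamini-Hochberg adjustment over the 15614 genes tested (threshold 0.05), 9 members were higher in si-SNHG17, where 19.6% of all genes tested were higher. Another 11 were lower, where 19.6% of all genes were lower, and 28 did not pass. In all, 41.7% of the 48 members tested passed, against 39.1% of all genes and 47.4% of the 9277 mRNAs within the members' range of mean CPM. The share of members called was thus close to the background. The genes that rose were RRP12, DDX21, RRS1, NOP14, RPP38, PES1, RRP1, NPM1 and UTP18, and those that fell were POP5, UBTF, POP1, GNL3, RRP1B, NOP16, BOP1, NHP2, NCL, NOP2 and NOLC1. The member not tested, UTP14A, a processome subunit, had 0 counts in all 6 libraries, while UTP14C, an expressed retrogene copy of it, had 245 to 376 counts per library; how the counting divides reads between them is not stated in these sources.

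The sizes of the changes were small. The median absolute log2 fold change of the members was 0.26, against 0.33 over all genes tested and 0.29 over the mRNAs of like abundance. POP5 was the 1 member that changed at least 2-fold (2.08% of those tested), against 9.81% of all genes and 6.36% of the mRNAs of like abundance. The median signed log2 fold change was 0.11, with 31 members positive and 17 negative, against 0.01 over all genes; without si-NC replicate 3 the members' median was 0.05. The si-SNHG17 and si-NC values did not overlap for 25 of 48 members (52.1%). This compares with 49.4% of all genes and 57.4% of the mRNAs of like abundance. With the CPM of all members added up, si-SNHG17 libraries held 3826, 3930 and 3864 and si-NC libraries 3626, 3643 and 3738. Every si-SNHG17 sum lay above every si-NC sum, at 3874 ± 52.9 against 3669 ± 60.2 (n = 3 each, SD), a ratio of 1.06 that was not tested. The largest rises in mean CPM were those of DDX21 (312 in si-SNHG17, 195 in si-NC) and NPM1 (526 and 437). Together they were about as large as the difference of the sums, which therefore does not show a shift of all members.

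**Figure D1:**
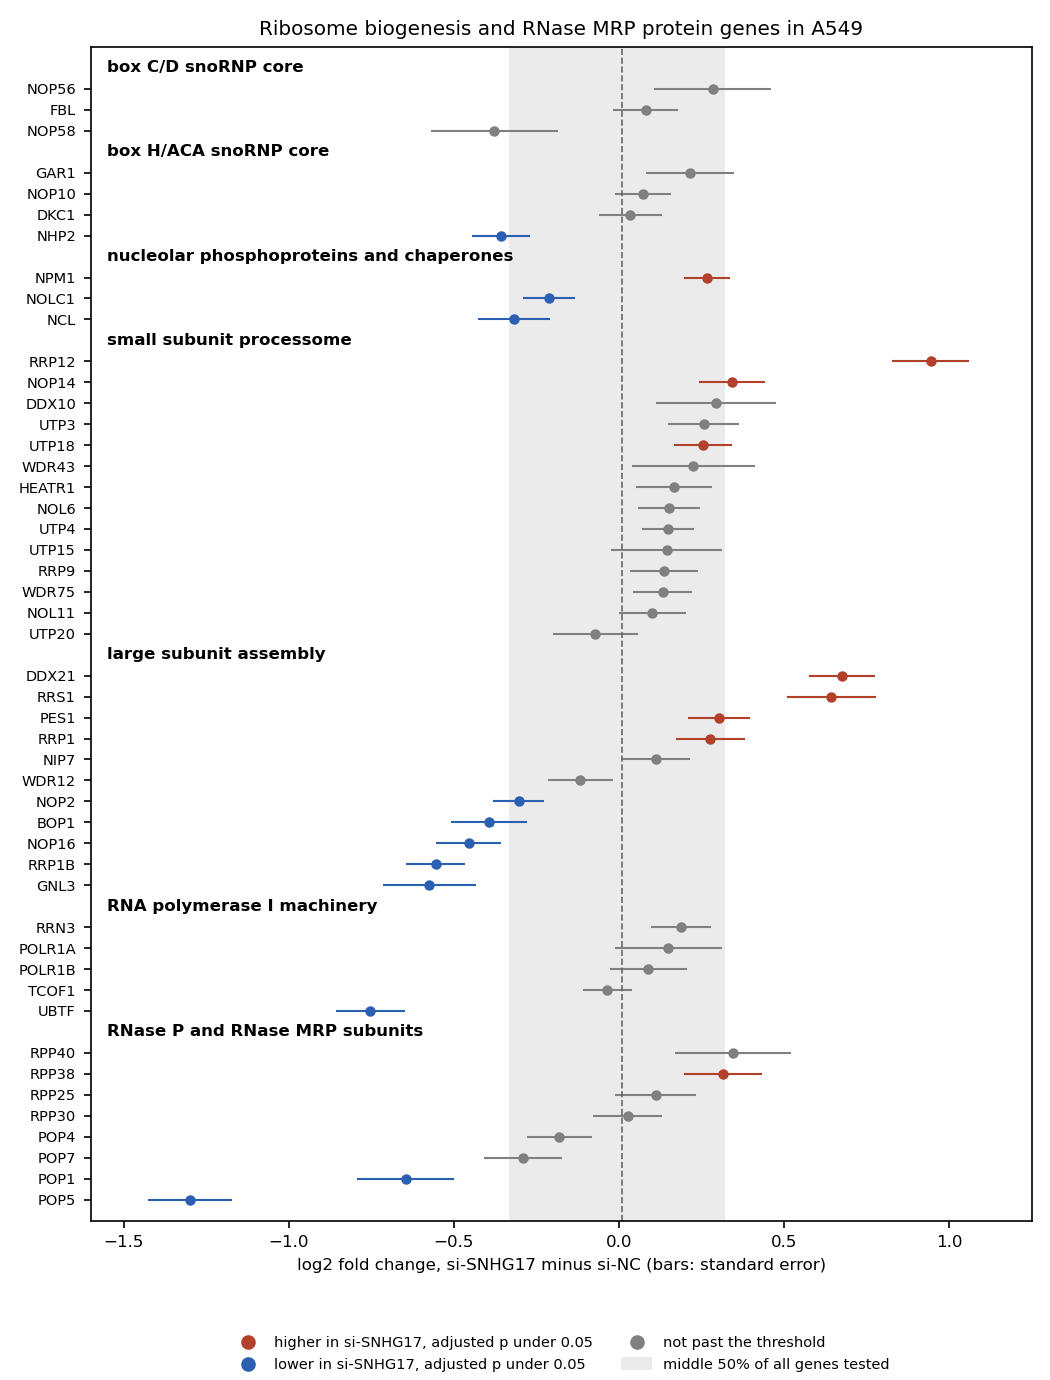
Log2 fold change (si-SNHG17 minus si-NC, horizontal axis) of the 48 members tested, grouped by role, with the standard error as a bar; red marks 9 genes higher and blue 11 genes lower at adjusted p under 0.05, grey the remainder, and the shaded band the middle 50% of all genes tested. Processome genes lie right of 0 apart from UTP20, large subunit factors lie on both sides, and POP5 lies farthest left at -1.30.

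The box C/D core proteins did not pass the test, where 39.1% of all genes passed. FBL encodes fibrillarin, the methyltransferase of the particle, and NOP56 and NOP58 hold the guide RNA in place. FBL had 574, 649.6 and 564 CPM in si-SNHG17 and 511, 522 and 658 CPM in si-NC (log2 fold change 0.08 ± 0.0985, SE). Its groups overlapped, with si-NC replicate 3 the highest library of all. Without that library the log2 fold change was 0.20 and passed (adjusted p = 0.0268). NOP56 had 10.7, 10.5 and 8.77 CPM in si-SNHG17 and 8.54, 9.57 and 6.65 CPM in si-NC (0.28 ± 0.178), and was at 0.14 without si-NC replicate 3. NOP58 had 5.11, 5.67 and 7.29 CPM in si-SNHG17 and 8.20, 8.38 and 6.84 CPM in si-NC (-0.38 ± 0.193). The 2 paralogs had fold changes of opposite sign, each with overlapping groups.

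Of the box H/ACA core, NHP2 fell and the other 3 proteins did not pass. DKC1 is dyskerin, the pseudouridine synthase, and GAR1, NHP2 and NOP10 complete the particle, which telomerase also uses. NHP2 had 73.1, 84.6 and 83.8 CPM in si-SNHG17 and 100.4, 99.8 and 109 CPM in si-NC. All si-SNHG17 libraries were below all si-NC libraries (log2 fold change -0.36 ± 0.0883, adjusted p = 0.00554). Of its exonic bases, 43.8% lie opposite RMND5B on the other strand, and whether counting used strand is not stated, so this value is uncertain. DKC1 had 44.7, 40.8 and 43.0 CPM in si-SNHG17 and 41.7, 43.0 and 40.7 CPM in si-NC (0.03 ± 0.0944, and 0.01 without si-NC replicate 3), with interleaved groups. NOP10 had 152, 157 and 143 CPM in si-SNHG17 and 131, 142 and 157 CPM in si-NC (0.07 ± 0.0852, and 0.14 without si-NC replicate 3), also overlapping. GAR1 had 13.8, 14.1 and 14.7 CPM in si-SNHG17 and 11.95, 12.53 and 12.2 CPM in si-NC; its groups did not overlap, but the adjusted p was 0.22 (0.22 ± 0.133).

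The 3 nucleolar phosphoproteins passed in different directions, where 39.1% of all genes passed. NPM1, or nucleophosmin, a histone and ribosome chaperone of the granular part of the nucleolus, was higher. It had 499.8, 546 and 532 CPM in si-SNHG17 and 434, 433 and 444 CPM in si-NC, with no overlap (log2 fold change 0.27 ± 0.0707, adjusted p = 0.00861). NPM1 has many processed copies in the genome, and 44 NPM1 pseudogene rows held 4303 to 6736 counts per library in all, so reads of the parent gene may be split among them. NCL, or nucleolin, a histone and RNA chaperone of the nucleolus, had 90.0, 109 and 105 CPM in si-SNHG17 and 108, 126 and 145 CPM in si-NC. It was lower (-0.32 ± 0.110, adjusted p = 0.0331) although 1 si-SNHG17 library slightly exceeded the lowest si-NC library. Its call was lost without si-SNHG17 replicate 1 (adjusted p = 0.163) or 3 (0.0759) and without si-NC replicate 2 (0.0688) or 3 (0.0734), the last with a log2 fold change of -0.21, and with library totals (0.0510). NOLC1, or Nopp140, which binds snoRNPs, had 199, 183 and 194 CPM in si-SNHG17 and 234, 227 and 206 CPM in si-NC, with no overlap (-0.21 ± 0.0786, adjusted p = 0.0464). This call was lost on leaving out any 1 library other than si-NC replicate 3, with adjusted p between 0.0825 and 0.169, with the replicate number as a block (0.0833), under DESeq2 (0.0589), with library totals (0.102) and with no filter on low counts (0.113).

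Of the 14 small subunit processome genes tested, 3 passed as higher and none as lower, and 11 did not pass (21.4% called, against 39.1% of all genes). Their median log2 fold change was 0.16 and 13 were positive (92.9%), against 50.8% of all genes tested and 25 of 38 in the list of other processome and small subunit genes (65.8%). The exception, UTP20, a HEAT-repeat scaffold, was at -0.07, with 0.02 without si-NC replicate 2 and -0.20 without si-NC replicate 3. Their CPM added up to 714, 694 and 714 in si-SNHG17 and to 613, 607 and 577 in si-NC. These sums did not overlap, and the difference was not tested.

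RRP12, a HEAT-repeat factor that accompanies pre-ribosomes out of the nucleus, rose the most of all members. It had 80.7, 77.4 and 70.9 CPM in si-SNHG17 and 32.9, 40.1 and 45.8 CPM in si-NC. The groups were far apart, at 76.3 ± 5.002 against 39.6 ± 6.46 CPM (n = 3 each, SD), a log2 fold change of 0.94 ± 0.116 (adjusted p = 2.25e-05). The gene lies on chromosome 10 from 97356357 to 97401370. NOP14, a processome protein needed for early cleavages, had 68.0, 56.9 and 66.9 CPM in si-SNHG17 and 50.4, 47.3 and 53.2 CPM in si-NC. The groups did not overlap (0.34 ± 0.0997, adjusted p = 0.0144). The NOP14 call was lost without si-SNHG17 replicate 1 (0.0680) or 3 (0.0569) or si-NC replicate 2 (0.0719). Of its exonic bases, 12.9% lie opposite NOP14-AS1. UTP18, a beta-propeller subunit of the UTP-B subcomplex, had 75.7, 74.9 and 83.8 CPM in si-SNHG17 and 67.7, 62.7 and 65.8 CPM in si-NC. It did not overlap either (0.26 ± 0.0873, adjusted p = 0.0323), and was no longer called without si-SNHG17 replicate 1 (0.0579) or 3 (0.122), without si-NC replicate 1 (0.0547) or 2 (0.131), or with the replicate number as a block (0.0622).

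UTP3, which joins the processome and in yeast is called Sas10, had 35.3, 42.9 and 40.2 CPM in si-SNHG17 and 31.4, 32.3 and 35.5 CPM in si-NC. The groups touched at their edges (0.26 ± 0.108, adjusted p = 0.0755), and with si-SNHG17 replicate 1 left out it passed (adjusted p = 0.0483), as it did without si-NC replicate 3 (0.0333). DDX10, an RNA helicase, was at 0.29 ± 0.183, and WDR43, a UTP-A subunit, at 0.23 ± 0.185. HEATR1, a large scaffold whose yeast counterpart is Utp10, was at 0.17 ± 0.116, and 23.9% of its exonic bases lie opposite other genes. Without si-NC replicate 3, DDX10 was at 0.14, WDR43 at 0.02, HEATR1 at 0.03 and UTP15 at 0.03. The other 6 lay between 0.10 and 0.15: NOL6, of the UTP-C subcomplex, at 0.15, RRP9, a U3 snoRNP protein, at 0.14, and the UTP-A subunits UTP4, UTP15, WDR75 and NOL11 at 0.15, 0.14, 0.13 and 0.10. None of these 9 genes passed.

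Large subunit factors passed in both directions. Of 11 tested, 4 were higher, 5 were lower and 2 did not pass (81.8% called, against 39.1% of all genes). In the list of other large subunit genes, 48.1% of 52 were called. DDX21, an RNA helicase that acts in both RNA polymerase I and II transcription and in rRNA processing, lies on chromosome 10 from 68956170 to 68985068. It had 311, 284 and 341 CPM in si-SNHG17 and 222, 195 and 169 CPM in si-NC. The groups were clearly separated, at 312 ± 28.4 against 195 ± 26.1 CPM (n = 3 each, SD; log2 fold change 0.68 ± 0.101, adjusted p = 0.000122). RRS1, which helps load the 5S particle onto the precursor of the large subunit, had 31.7, 44.3 and 38.9 CPM in si-SNHG17 and 24.0, 22.2 and 27.4 CPM in si-NC. These did not overlap (0.64 ± 0.134, adjusted p = 0.0017), and 11.4% of its exonic bases are shared with another gene on the same strand.

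RRP1B and RRP1 are paralogs, both tied to the large subunit, and they moved in opposite directions. RRP1B had 50.1, 48.1 and 49.7 CPM in si-SNHG17 and 74.9, 74.9 and 67.3 CPM in si-NC, with no overlap (-0.55 ± 0.0892, adjusted p = 0.000237). RRP1 had 36.2, 39.5 and 35.6 CPM in si-SNHG17 and 28.5, 32.4 and 31.0 CPM in si-NC, also with no overlap (0.28 ± 0.103, adjusted p = 0.047). The RRP1 call was lost without any 1 library other than si-NC replicate 3 (adjusted p between 0.0626 and 0.174), under DESeq2 (0.0865), with no filter on low counts (0.0761), with the replicate block (0.0783) and with an offset for GC content and length (0.206, log2 fold change 0.15). The RRP1B call held in all 15 alternative fits.

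PES1, BOP1 and WDR12 form 1 complex, PeBoW, which is required to process the spacer before the large subunit rRNAs, and the 3 genes gave 3 different outcomes. PES1 had 132, 149 and 129 CPM in si-SNHG17 and 99.4, 110.5 and 122 CPM in si-NC and was higher (log2 fold change 0.30 ± 0.0938, adjusted p = 0.0203). BOP1 had 28.0, 25.01 and 24.5 CPM in si-SNHG17 and 36.2, 30.1 and 35.7 CPM in si-NC and was lower (-0.39 ± 0.114, adjusted p = 0.0139). Neither gene had overlapping groups. Of the exonic bases of PES1, 8.37% lie opposite TCN2. WDR12 had 46.0, 48.6 and 43.2 CPM in si-SNHG17 and 50.3, 53.3 and 46.2 CPM in si-NC and did not pass (-0.12 ± 0.0984), with overlapping groups. The PES1 call was lost without si-SNHG17 replicate 2 (0.0997) or si-NC replicate 1 (0.0976) or 2 (0.0611), and the BOP1 call without si-SNHG17 replicate 2 (0.0515) or 3 (0.0585) or si-NC replicate 1 (0.0575).

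NOP16, a large subunit factor described as a MYC target, had 35.9, 35.6 and 40.3 CPM in si-SNHG17 and 48.6, 52.2 and 52.3 CPM in si-NC. It was lower without overlap (-0.46 ± 0.0977, adjusted p = 0.00217), and 12.3% of its exonic bases lie opposite HIGD2A. GNL3, or nucleostemin, a GTP-binding protein of the nucleolus of proliferating cells, had 17, 25.5 and 20.4 CPM in si-SNHG17 and 32.8, 32.7 and 28.8 CPM in si-NC. It too was lower without overlap (-0.57 ± 0.141, adjusted p = 0.00526). NOP2, an rRNA cytosine methyltransferase, had 106, 105 and 98.2 CPM in si-SNHG17 and 129.9, 124 and 129 CPM in si-NC (-0.30 ± 0.0776, adjusted p = 0.00677), again without overlap. AC006064.6, a gene annotated on the same strand, covers 70.9% of the exonic bases of NOP2, so its count is uncertain. NIP7, which binds the large subunit precursor, was at 0.11 ± 0.106 (0.07 without si-NC replicate 3) and did not pass.

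**Figure D2:**
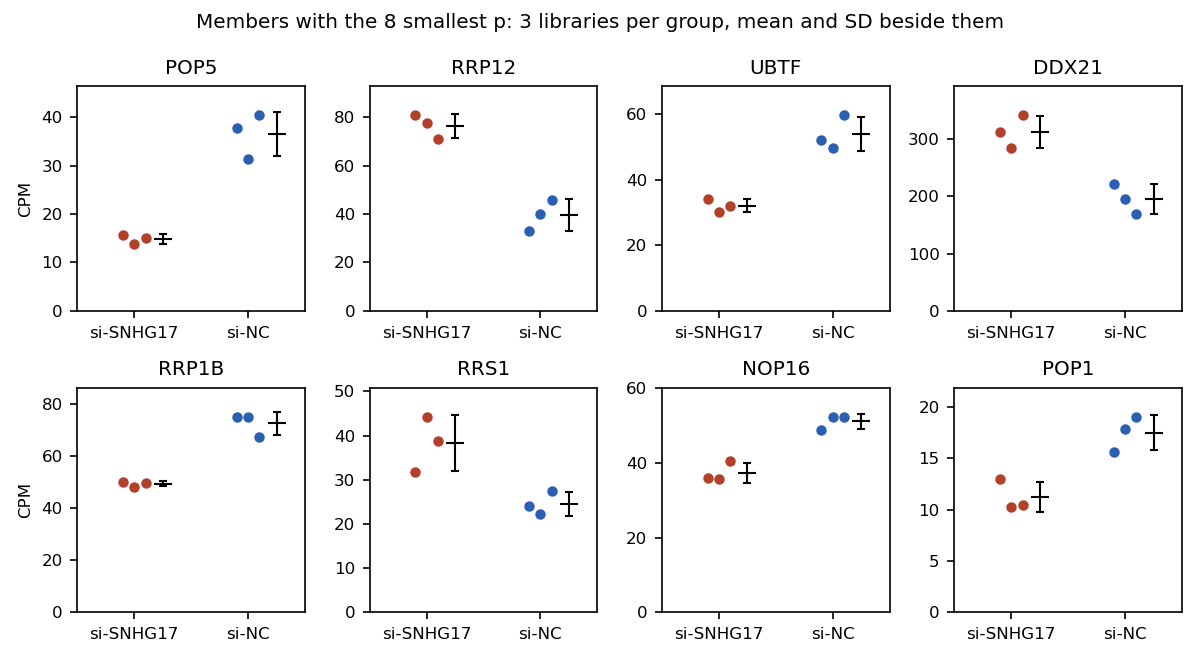
CPM (vertical axes, from 0) of the 8 members with the smallest p in each of the 3 si-SNHG17 libraries (red, left) and 3 si-NC libraries (blue, right), with the mean and SD beside the points. The groups do not overlap in any of the 8 panels; POP5, UBTF, RRP1B, NOP16 and POP1 are lower in si-SNHG17, and RRP12, DDX21 and RRS1 are higher.

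In the RNA polymerase I machinery, UBTF fell and the other 4 genes did not pass. UBTF encodes UBF, the HMG-box protein that coats active rRNA genes, and lies on chromosome 17 from 44205040 to 44221304. It had 33.99, 30.04 and 31.9 CPM in si-SNHG17 and 52.1, 49.7 and 59.6 CPM in si-NC. With no overlap, the si-SNHG17 mean was 59.4% of the si-NC mean (log2 fold change -0.75 ± 0.105, adjusted p = 7.09e-05). RRN3, or TIF-IA, which brings the polymerase to the promoter, had 59.7, 58.8 and 61.3 CPM in si-SNHG17 and 55.7, 53.0 and 49.3 CPM in si-NC. Its groups did not overlap, but it did not pass (0.19 ± 0.0903, adjusted p = 0.116).

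The catalytic subunits of the polymerase overlapped between groups. POLR1A, the largest subunit, had 96.7, 66.8 and 72.7 CPM in si-SNHG17 and 77.3, 83.6 and 52.0 CPM in si-NC (0.15 ± 0.163). Its sign turned to -0.04 without si-NC replicate 3 and to -0.02 without si-SNHG17 replicate 1. POLR1B, the second subunit, had 50.3, 50.9 and 55.8 CPM in si-SNHG17 and 51.5, 55.6 and 40.6 CPM in si-NC (0.09 ± 0.117), and was at -0.04 without si-NC replicate 3. TCOF1, or treacle, which links polymerase I and processing factors, was at -0.04 ± 0.0753, with 144 ± 5.37 CPM in si-SNHG17 and 148 ± 4.20 CPM in si-NC (n = 3 each, SD).

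Among RNase P and RNase MRP subunits, POP5 and POP1 were lower, RPP38 was higher and the other 5 did not pass. The share called, 37.5%, was close to the 39.1% of all genes. POP5, a small subunit found in both enzymes, lies on chromosome 12 from 120578764 to 120581402. It had 15.7, 13.8 and 15.04 CPM in si-SNHG17 and 37.8, 31.4 and 40.4 CPM in si-NC. The highest si-SNHG17 library was far below the lowest si-NC library. The mean was 14.9 ± 0.973 CPM in si-SNHG17 and 36.5 ± 4.64 CPM in si-NC (n = 3 each, SD), so that 40.7% of the si-NC level was present (log2 fold change -1.30 ± 0.127, adjusted p = 2.85e-06). POP1, the largest protein of both enzymes, had 12.9, 10.2 and 10.5 CPM in si-SNHG17 and 15.6, 17.9 and 19.0 CPM in si-NC, with no overlap (-0.65 ± 0.148, adjusted p = 0.00331). Both calls held in all 15 alternative fits.

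RPP38, a protein of the L7Ae type that binds the catalytic RNA, had 37.3, 43.9 and 38.4 CPM in si-SNHG17 and 27.9, 36.5 and 31.8 CPM in si-NC. The groups were close but did not overlap (log2 fold change 0.32 ± 0.118, adjusted p = 0.0479). It lost the call without any 1 library other than si-NC replicate 2 (adjusted p between 0.0536 and 0.195) and under DESeq2 (0.0646). Of its exonic bases, 8.44% lie opposite C10orf111. POP7, known also as RPP20 and a partner of RPP25, had 40.2, 48.3 and 41.1 CPM in si-SNHG17 and 48.04, 49.1 and 61.7 CPM in si-NC. The groups touched (-0.29 ± 0.118, adjusted p = 0.0662), and POP7 passed without si-SNHG17 replicate 2 (-0.38, adjusted p = 0.0393) and without si-NC replicate 1 (-0.36, adjusted p = 0.0457), and was at -0.17 without si-NC replicate 3. POP4, which contacts the catalytic RNA, was at -0.18 ± 0.0985, RPP25 at 0.11 ± 0.122, RPP30 at 0.03 ± 0.105 (-0.01 without si-NC replicate 3) and RPP40 at 0.35 ± 0.175. RPP14, RPP21 and RPP25L, further proteins of these enzymes, did not pass, with log2 fold changes of 0.06, 0.25 and 0.13.

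The catalytic RNAs had much higher counts in si-SNHG17. RMRP had 154, 197 and 193 counts in si-SNHG17 and 14, 7 and 12 counts in si-NC, and RPPH1 had 27, 40 and 36 counts in si-SNHG17 and 4, 3 and 3 counts in si-NC. Neither RNA's groups came near each other. In CPM, RMRP was at 17.9 ± 3.52 in si-SNHG17 and 1.14 ± 0.452 in si-NC (n = 3 each, SD; log2 fold change 3.98 ± 0.259, adjusted p = 6.81e-08). The ratio of summed counts, scaled for library size, was 15.8 for RMRP (exact 95% interval 11.1 to 23.2) and 9.87 for RPPH1 (5.16 to 21.2), intervals that cover counting error only. RPPH1 passed the test as well (log2 fold change 3.26 ± 0.390, adjusted p = 1.77e-05). RMRP and RPPH1 are short, structured transcripts of RNA polymerase III without a poly(A) tail. How far library preparation took up such RNAs in each library was not tested.

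**Figure D3:**
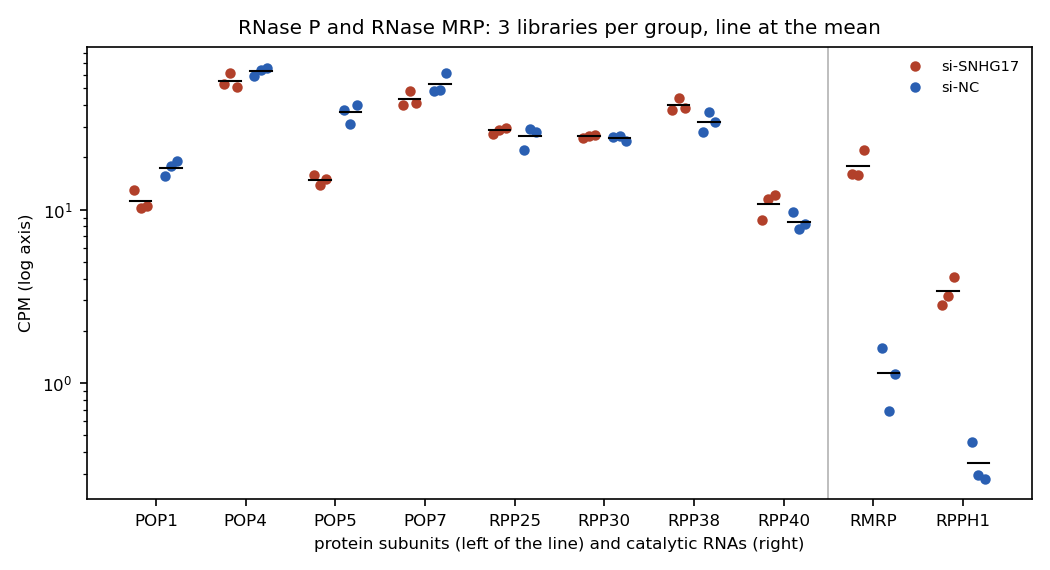
CPM (log axis) of the 8 protein subunits of RNase P and RNase MRP among the members, left of the line, and of the catalytic RNAs RMRP and RPPH1, right of it, in 3 si-SNHG17 libraries (red, left of each pair) and 3 si-NC libraries (blue), with a bar at the mean. POP5 and POP1 are lower in si-SNHG17 while RMRP and RPPH1 are higher in every si-SNHG17 library than in any si-NC library.

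SNORD3A, a copy of U3, the guide RNA of the processome, was also higher. It had 156, 152 and 268 counts in si-SNHG17 and 16, 31 and 22 counts in si-NC, with no overlap (log2 fold change 3.05 ± 0.338, adjusted p = 9.04e-06). U3 has near-identical copies, so the reads of this row are uncertain. SNORD118, or U8, which acts on the large subunit rRNAs, did not pass (0.29 ± 0.371). FBL, NOP56, NOP58 and RRP9, proteins of the U3 particle, did not pass.

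Further genes of the same pathways, listed by function, passed in both directions. Across 131 of them tested, 31 were higher, 17 were lower and 83 did not pass (36.6% called, against 39.1% of all genes), with a median log2 fold change of 0.11. Of 38 other processome and small subunit genes, 7 were higher and 3 lower (26.3% called). They were led by NOB1, the nuclease that makes the final cut of the small subunit rRNA. NOB1 was at 323 ± 23.9 CPM in si-SNHG17 and 176 ± 17.2 CPM in si-NC (0.88, adjusted p = 3.88e-06). DIEXF (0.77), PDCD11 (0.35) and IMP3 (0.31) also rose. Of 52 other large subunit genes, 18 were higher and 7 lower (48.1% called). NLE1, GLTSCR2 and NMD3, the export adaptor of the large subunit, rose by 0.69, 0.71 and 0.60, and LAS1L, a spacer endonuclease, fell by 0.69 on the log2 scale.

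Of 13 other RNA polymerase I genes, 4 were higher and 2 lower (46.2% called, against 39.1% of all genes). TAF1D, a subunit of the promoter selectivity factor SL1 and host of several snoRNAs, had 69.3, 63.0 and 81.5 CPM in si-SNHG17 and 31.8, 31.6 and 32.1 CPM in si-NC (1.16 ± 0.108, adjusted p = 2.00e-06), with no overlap. POLR1C, shared by polymerases I and III, rose (0.76), whereas POLR1D, also shared by both, fell (-0.46), as did BAZ2A (-0.41), a subunit of the complex that silences rRNA genes. Among 9 snoRNP assembly genes (22.2% called), NUFIP1 was higher (0.54) and RUVBL2 lower (-0.26), while ZNHIT3 (0.31) and ZNHIT6 (-0.34) did not pass. Of 16 nuclear RNA exosome genes (31.25% called), 1 was higher and 4 were lower: MPHOSPH6 (-0.82), EXOSC8 (-0.49), EXOSC9 (-0.44) and EXOSC2 (-0.29).

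Members differed widely in abundance. Levels per kilobase use the longest annotated transcript of each gene, protein-coding ones first, which need not be the form expressed in A549, and they depend on that choice. Per kilobase of transcript, the mean level of FBL was 514 CPM in si-SNHG17 and 486 CPM in si-NC, the highest of all, followed in si-NC by NOP10 (272 in si-SNHG17, 259 in si-NC) and NPM1 (299 in si-SNHG17, 249 in si-NC). NOP10 and NPM1 differed in si-NC by less than their spread and exchanged places in si-SNHG17. NHP2 came next (93.0 in si-SNHG17, 119 in si-NC), and 7 of the members tested lay under 5 CPM per kilobase in si-NC, with DDX10 the lowest of them (1.52 in si-SNHG17, 1.247 in si-NC). The other 6 of these, UTP20, NOP58, POP1, WDR43, NOP56 and UTP15, had 2.77 to 4.05 CPM per kilobase in si-NC. In si-NC the level per kilobase of FBL was thus far above that of its partners NOP56 and NOP58 (3.44 and 3.82), a comparison of rows that depends on how reads of each gene were assigned.

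Some members carry small nucleolar RNAs in their introns, as SNHG17 does. DKC1, GNL3, NCL, NOL11, NOP56, NOP58 and WDR43 host 23 annotated snoRNAs, of which 20 have a row and 19 had any count. None of the 7 hosts was higher and 2 (NCL and GNL3) were lower (28.6% called), with a median log2 fold change of 0.03. Of the 41 other members tested 9 were higher and 9 lower (43.9% called), with a median of 0.13. Of all genes tested, 19.6% were higher and 19.6% lower. The difference between hosts and other members was not tested. The hosted snoRNAs summed to 354 counts in si-SNHG17 and 590 counts in si-NC, and without SNORD86 to 107 counts in si-SNHG17 and 136 counts in si-NC, so SNORD86 made up most of the difference. Most were too sparse to test. SNORD86, in NOP56, had 85, 95 and 67 counts in si-SNHG17 and 111, 173 and 170 counts in si-NC and was lower (-0.93 ± 0.162, adjusted p = 0.000469), although NOP56 itself did not pass. SNORD110, also in NOP56, had 11, 7 and 10 counts in si-SNHG17 and 17, 17 and 15 counts in si-NC and did not pass (-0.85 ± 0.384).

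Transcript length and GC content moved with the library that stood apart, and with other libraries too. The deviation of si-NC replicate 3 from the mean of the other 2 si-NC libraries correlated across the 48 members with transcript length (Spearman -0.46) and GC content (0.61). Across 14160 genes the values were -0.40 and 0.42. For si-SNHG17 replicates 1, 2 and 3, the members' values were 0.43, -0.39 and -0.14 with length. With GC content they were 0.08, 0.22 and -0.31. For si-NC replicates 1 and 2, whose reference mean includes replicate 3, they were 0.33 and 0.45 with length. With GC content these were -0.53 and -0.34. All are descriptions across genes of 1 library each, and genes are not independent replicates. In si-NC replicate 3 the 8 longest members, of 5059 to 12749 bases, were all below the mean of the other si-NC libraries. Their median log2 deviation was -0.41, with TCOF1 at -0.004. Of the 40 other members, 17 were below (median 0.02). The cut at 8 lies where the run of negative values ends: the next longest, UBTF (4997 bases), was at 0.22. POLR1A, the longest, was at -0.62. Across the members the Spearman correlation of the log2 fold change was 0.02 with length and -0.08 with GC content. With an offset for length and GC content, an alternative added after the data were seen, 19 of the 20 calls remained, RRP1 was lost, and NOP10, GAR1, UTP3, RPP40 and RRN3 (higher) and TCOF1 and POP7 (lower) passed.

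**Figure D4:**
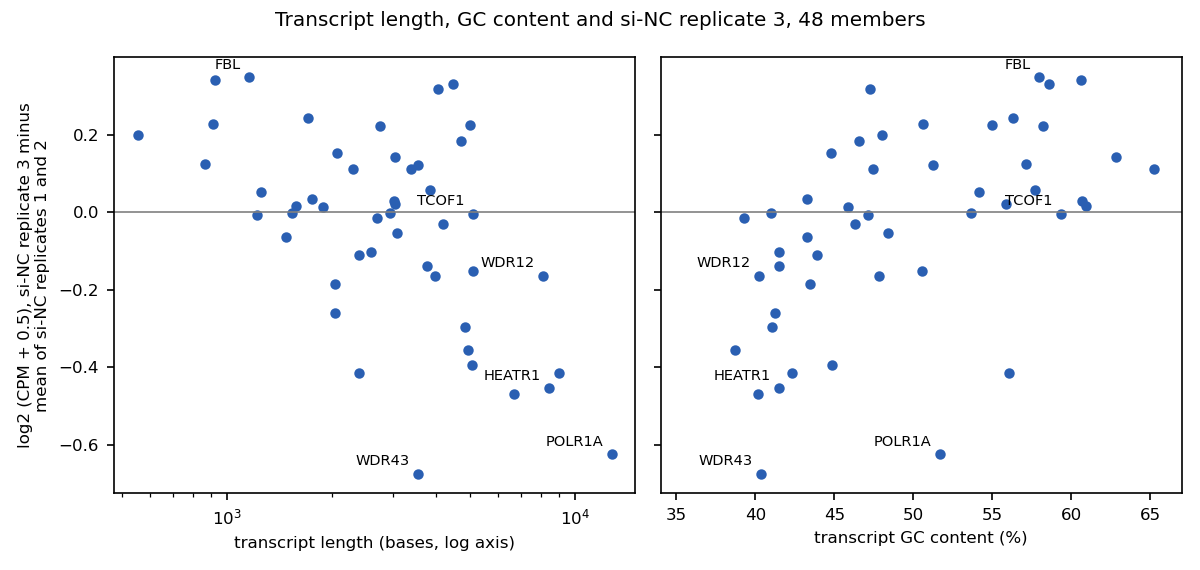
Difference in log2 (CPM + 0.5) between si-NC replicate 3 and the mean of si-NC replicates 1 and 2 (vertical axis) against transcript length in bases (left, log axis) and GC content in percent (right), 1 point per member tested (48). The points fall with length and climb with GC content; POLR1A, the longest member, lies at -0.62.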

How the data were processed

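RNA of 3 si-SNHG17 and 3 si-NC libraries of A549 cells was sequenced single-end on an Ion Proton instrument, per the labels' protocols. For each of 54261 genes the authors deposited raw counts, whole numbers that were not normalized. The genome build was GRCh38, per the submitters' processing notes; the sources used here do not give the aligner, counter, annotation or use of strand. Counts were tested with edgeR 4.0.16 in R 4.3.3 (filterByExpr, TMM scaling, quasi-likelihood fit with group as the only term, Benjamini-Hochberg adjustment over 15614 genes, threshold 0.05). Errors of fold changes are standard errors, |log2 fold change| divided by the square root of the F statistic. The procedure was tested on simulated counts. Positions and promoters came from RefSeq (GRCh38.p14). Lengths and GC content came from the longest GENCODE transcript of each gene, protein-coding ones first. Libraries with the same number did not deviate together (correlations 0.06, -0.11 and -0.08) and were not paired.

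The members and gene lists were chosen with earlier results of these data known. Values per library are given for up to 4 members of each role with the smallest p, for all called members and for WDR12; up to 4 genes of each further list with the smallest p are named. SNHG17, RMRP, RPPH1, SNORD3A, SNORD86 and SNORD110 were named by choice. Alternatives were other scalings, DESeq2 1.42.0, limma-voom (limma 3.58.1), other filters, a 2-fold requirement, a replicate block, each library left out and, added after the data were seen, an offset for GC content and length fitted with mgcv 1.9.3.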

Additional observations from a re-analysis of the deposited data

How the results depend on the processing

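Across 15 alternative fits, 12 of the 20 called members passed in every one (RRP12, DDX21, RRS1 and NPM1 higher; POP5, UBTF, POP1, GNL3, RRP1B, NOP16, NHP2 and NOP2 lower), and no called member changed sign. The 8 that lost the call somewhere were NOLC1, RRP1, RPP38, UTP18, NCL, NOP14, BOP1 and PES1. With at least a 2-fold change required, 1465 genes passed (697 higher, 768 lower), with 0 members higher and 1 lower. Leaving out 1 library gave 5 to 10 members higher and 8 to 10 lower. The count of 5 came without replicate 3 of si-SNHG17 and without replicates 1 or 2 of si-NC. The median of the members lay between 0.0491, reached on leaving out si-NC replicate 3, and 0.130. It was 0.148 with library totals, which put the median of all genes at 0.05. The replicate block, which pairs libraries that share only a number, gave 5579 genes and 17 of the 20 members. Signs turned, with the cause not tested, for members that did not pass: with 1 library left out, UTP20 ran from -0.205 to 0.0172, POLR1A from -0.0371 to 0.284 (-0.0203 without si-SNHG17 replicate 1), POLR1B from -0.0372 to 0.185, RPP25 from -0.00156 to 0.183 and RPP30 from -0.00972 to 0.0460. With library totals TCOF1 was at 0.0024, and with the GC content and length offset RPP25 was at -0.0686. That offset called 26 members and put BOP1 at -0.60. Low members had wide errors, such as a standard error of 0.183 for DDX10; what size of change could be detected at this depth was not tested.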
